A study of Mus musculus with 73 samples.

Results

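The apolipoprotein cluster of mouse chromosome 9 holds the genes Apoa1, Apoc3, Apoa4 and Apoa5, and was studied here as every measured feature whose start lies between 45980000 and 46095000 of the mm9 build. This window held 29 of the 28654 FoxA binding sites present in both whole-genome bisulfite sequencing (WGBS) tables, 2 of the sites in the authors' deposited list of hyper-methylated sites, 79 of the 817277 tiles of reduced representation bisulfite sequencing (RRBS), and 17 HNF6 peaks over 7 peak lists. The adult WGBS table holds no site of chromosomes 1 and 2, which the developmental table of 33302 sites covers. Ranks and shares of all sites below therefore leave these chromosomes out. The 2 listed sites overlap and make up 6.9% of the 29 sites, beside 7.91% listed among the 28654. A FoxA site is a stretch of 400 bases and a tile one of 100 bases, and each has 1 methylation level per library, given below in percent. The window was selected on the WGBS levels of the controls and developmental nulls, for one of the steepest gains in the latter, so those differences are described without a test.

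Apolipoproteins are the protein parts of the particles that carry fat and cholesterol in blood, and hepatocytes are a main source of them. Apoa1 encodes the main protein of high density lipoprotein; Apoc3 encodes an inhibitor of triglyceride clearance; Apoa4 encodes a lipid-carrying protein made largely after fat intake; Apoa5 encodes a protein that lowers plasma triglycerides. FoxA1, FoxA2 and FoxA3 are forkhead transcription factors that open chromatin during liver development, and HNF6 is a liver transcription factor that binds many of the same enhancers. Methylation of cytosine in CpG pairs is usually low at active enhancers and promoters and high elsewhere.

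WGBS was made from hepatocytes and HNF6 chromatin immunoprecipitation (ChIP) from livers of mice labelled Foxa1L/L;2L/L, whose Foxa1 and Foxa2 genes Cre can delete. The controls carried no Cre (WGBS n = 2, HNF6 n = 3), the developmental nulls carried Alfp Cre, which acts from liver development on (n = 2 and 2), and the adult nulls received AAV Cre, a virus that carries Cre under a promoter active in hepatocytes, at 8 weeks of age (n = 2 and 2). RRBS was made in 27 libraries labelled liver, from hepatocyte DNA per the protocol, and every level is an average over the cells of a sample. Its age series has 4 controls and 4 FoxA developmental double nulls, with 1 of each at the ages of 20 days, 8 weeks, 4 months and 6 months. Livers of 8-week-old mice in which FoxA1L/L;FoxA2L/+ (n = 2) or FoxA1L/+;FoxA2L/+ (n = 2) was depleted in development keep 1 Foxa2 allele, or 1 allele of each gene. FoxA triple nulls were taken 7 (n = 3, 9 weeks old) or 13 days (n = 2, 12 weeks old) after Cre induction, beside controls given GFP (n = 3 and 2), labelled FoxA1L/L;FoxA2L;L;FoxA3-/-, that lack FoxA3 as the nulls do. Adult FoxA double nulls (n = 3) and controls injected with AAV GFP (n = 2), all 12 weeks old, were taken after partial hepatectomy. Sample numbers are the only statement that libraries of a group are separate samples, so p-values measure the spread between these samples. The methylation tables give no read depth, so the precision behind a single level is unknown, and Foxa1 and Foxa2 levels were not measured in them.

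The RefSeq gene order of the GRCm38.p6 build places Apoa1, Apoc3, Apoa4 and Apoa5 next to each other, between Sik3, with a non-coding gene and a pseudogene, on the Apoa1 side and Zpr1 and Bud13 on the Apoa5 side. No mm9 annotation was used, so no site or tile below is assigned to a gene, exon or promoter. To show what the starts of these genes look like, the 250 bases before the start are printed for the 3 genes with an entry in the RefSeq promoter table (GRCm38.p6, the strand of the gene, the first of 2 entries for Apoa5), with each forkhead core in capitals:
Apoa1: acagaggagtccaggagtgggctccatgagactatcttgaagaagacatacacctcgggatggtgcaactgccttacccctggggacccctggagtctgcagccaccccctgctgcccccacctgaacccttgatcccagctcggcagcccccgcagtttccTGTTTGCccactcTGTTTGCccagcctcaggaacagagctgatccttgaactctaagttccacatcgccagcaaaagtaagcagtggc
Apoa4: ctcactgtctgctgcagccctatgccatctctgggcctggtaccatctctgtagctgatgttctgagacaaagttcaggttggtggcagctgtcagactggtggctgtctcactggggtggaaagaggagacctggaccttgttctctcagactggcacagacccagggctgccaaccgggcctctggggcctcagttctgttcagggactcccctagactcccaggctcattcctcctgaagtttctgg
Apoa5: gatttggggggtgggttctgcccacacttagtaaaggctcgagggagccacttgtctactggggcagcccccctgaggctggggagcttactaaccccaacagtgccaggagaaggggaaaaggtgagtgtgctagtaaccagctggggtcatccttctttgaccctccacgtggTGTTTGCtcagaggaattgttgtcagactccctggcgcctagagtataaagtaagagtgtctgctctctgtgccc

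The forkhead core was searched as TGTTTAC or TGTTTGC on both strands. Apoa1 holds 2 matches, at positions -88 and -75 from the start, Apoa5 holds 1, at -75, and Apoa4 holds 0. Of 27025 promoters of the same length, 1 per gene, 7.22% hold at least 1 forkhead core and 0.396% hold at least 2. The HNF6 core, searched as ATTGAT or ATTGAC on both strands, is in 0 of the 3 printed promoters and in 12% of all. The printed stretches hold few CpG pairs, 4 for Apoa1, 1 for Apoa4 and 3 for Apoa5, against a median of 6 over all promoters. A match is a description of the letters only.

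FoxA sites were dense and poorly methylated in this window. The 29 sites formed 17 separate regions, since many overlap. Of 8890 fixed intervals of this length that hold a FoxA site, only the 1 that holds these same sites had at least 29. The median interval held 3. In controls 26 of the 29 sites averaged under 15%, as did 59% of all sites, and the median site stood at 7.35%, against 10.7% over all sites. Averaged over the 29 sites, the 2 control libraries stood at 8.82% and 8.03%, the 2 developmental nulls at 13.5% and 11.0%, and the 2 adult nulls at 5.36% and 6.25%. The developmental average rested on a single region: over the 27 sites outside the hyper-methylated list the developmental nulls stood at 8.15% and 5.46%, beside 8.72% and 7.92% in controls.

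That region is a pair of overlapping sites, 46010410 to 46010809 and 46010467 to 46010866, which share 343 bases. Their shared CpGs were not counted, but the levels of the 2 sites are not separate measurements. At the first site the controls stood at 11.0% and 9.84%, the developmental nulls at 83.9% and 86.4%, and the adult nulls at 14.1% and 19.5%. At the second the controls stood at 9.09% and 9.23%, the developmental nulls at 87.9% and 85.9%, and the adult nulls at 12.1% and 19.8%. Both developmental nulls were thus almost fully methylated where controls and adult nulls were poorly methylated, and the adult nulls lay slightly above the controls. The mean gains of the developmental null, 74.7 and 77.7 points, rank 11 and 8 among the 28654 sites, and lie between 73.5 and 78.7 points when any 1 of the 4 libraries is left out. The values chose the window, so they carry no test; 7.11% of all sites pass the same limma fit as higher in the developmental null.

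**Figure D1:**
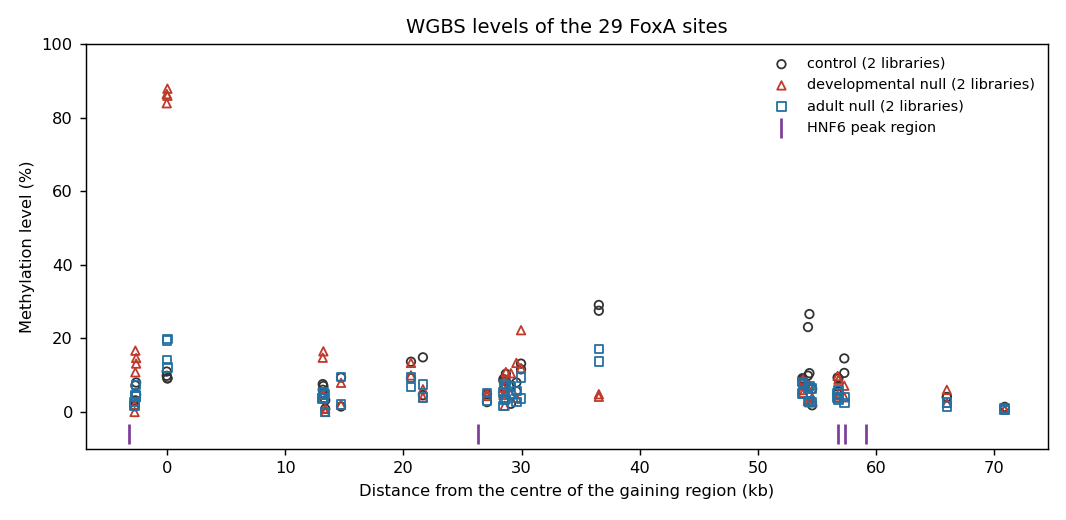
WGBS methylation level (%, vertical axis) of each of the 29 FoxA sites in each of the 6 libraries, against distance from the centre of the gaining region in kb; circles are controls, triangles developmental nulls, squares adult nulls, and the short vertical bars under 0 mark the 5 HNF6 regions. The developmental nulls stand at 83.9% to 87.9% at the gaining pair and no library exceeds 29.1% at any other site.

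The nearest region before the gaining pair, 46007689 to 46008219, holds 3 overlapping sites. Its first site stayed under 3% in all 6 libraries. At 46007755 to 46008154 the controls stood at 3.16% and 7.22% and the developmental nulls at 16.7% and 10.8%, and at 46007820 to 46008219 the controls stood at 4.72% and 8% and the developmental nulls at 14.7% and 13.2%. These 2 sites are the only ones outside the list where both developmental nulls lay above both controls, and their gains of 8.54 and 7.55 points are far under the 20 points that define the list. Over all sites 33.6% show this separation upward and 15% downward. In the window 4 sites lay above and 7 below, the other 18 overlapped, and none of these counts is a test, because the rule used these libraries.

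The steepest loss of the window lay at 46046973 to 46047372. Its controls stood at 27.5% and 29.1%, its developmental nulls at 4.83% and 4.13%, and its adult nulls at 17.2% and 13.7%. The 3 groups did not overlap, with the adult nulls between the others. The mean developmental difference was -23.8 points, and 0.314% of all sites show a loss of this size or more; 0.632% of all sites pass the limma fit as lower in the developmental null. Sites 46064671 to 46065070 and 46064793 to 46065192 overlap and also lost methylation on average, by 11.8 and 13.6 points, but their controls disagreed: 23.1% and 9.88% at the first and 26.6% and 10.6% at the second. All 4 null libraries lay between 2.63% and 7.3% there. Without control 1 the 2 developmental differences shrink to -5.19 and -5.59 points. At 46067743 to 46068142 the controls stood at 14.6% and 10.6%, the developmental nulls at 7.14% and 4%, and the adult nulls at 4.13% and 2.42%.

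The 2 FoxA sites nearest before the window, 45966384 to 45966783 and 45966463 to 45966862, overlap; they stood at 9.29% and 7.94% in controls and at 20.6% and 19.1% in developmental nulls, and neither is in the list. The nearest after it, 46238986 to 46239385 and 46239029 to 46239428, lie 143986 and 144029 bases past its edge, at 8.3% and 8.75% in controls and 10.6% and 11.2% in developmental nulls. The stretch of equal length before the window held 15 FoxA sites, with a median of 13.1% in controls and 18.5% in developmental nulls, and the stretch after it held 0. Of those 15 sites 1 is in the list, 45948811 to 45949210, at 24.7% in controls and 52.6% in developmental nulls.

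**Figure D2:**
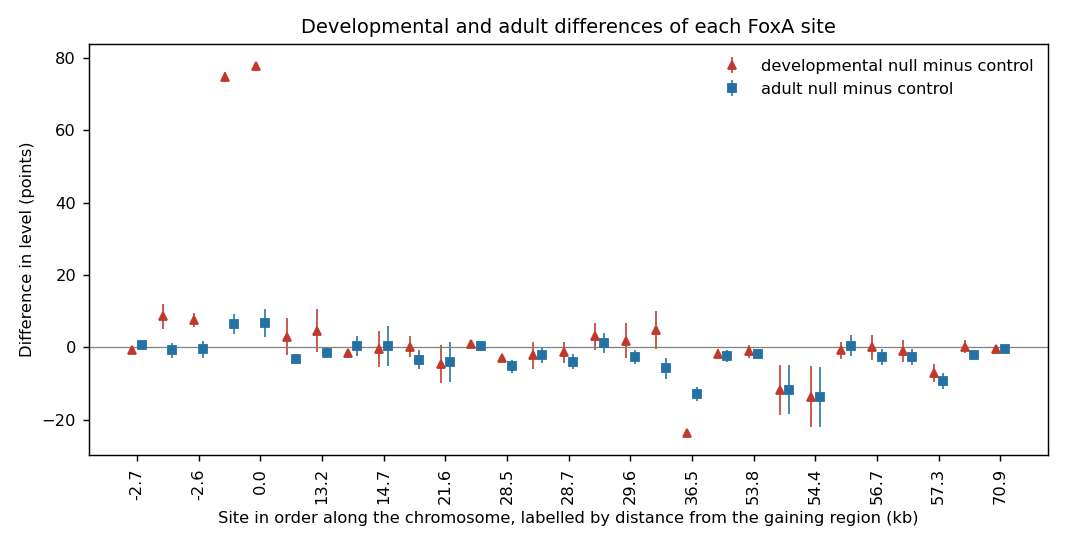
Difference in WGBS level from the control mean (points, vertical axis) of the developmental null mean (triangles) and the adult null mean (squares) at each of the 29 FoxA sites in chromosomal order, labelled by distance from the gaining region in kb; bars are ± SE of the difference from the SDs of 2 libraries a group. The gaining pair stands at 74.7 and 77.7 points for the developmental null and 6.38 and 6.79 points for the adult null.

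Deletion of Foxa1 and Foxa2 in the adult gave no site of the window past the threshold. In a limma fit over the 28654 sites, with the 3 WGBS groups sharing 1 spread, 0 of the 29 sites had an adjusted p under 0.05, as did 0% of all sites. At an unadjusted p under 0.05 there were 5 of 29, all lower in adult nulls, against 8.02% of all sites, and 2 of the 5 overlap. On the logit scale the count was 6 of 29, beside 2239 of all 28654 sites. With the spread of the 2 groups only it was 2 of 29, beside 2163 of all sites. The lowest adjusted p, 0.558, belonged to 46067743 to 46068142 (adult null 3.28% ± 1.21 against control 12.6% ± 2.79, SD, n = 2 each, limma difference -9.31 points, SE 2.53). At the losing site 46046973 to 46047372 the adult null averaged 15.4% ± 2.47 against 28.3% ± 1.11 (SD, n = 2 each), a limma difference of -12.9 points with SE 3.97 and adjusted p = 0.56. At the gaining pair the adult differences were 6.38 points (SE 4.31, limma adjusted p = 0.75) and 6.79 points (SE 4.54, limma adjusted p = 0.749). The 2 control libraries of this fit also served to choose the window and to name these sites by their developmental difference. The adult differences and p-values of these sites are therefore not independent of that choice. Thus the gaining pair, which separated the developmental nulls from the controls by over 70 points, did not pass the threshold in adult nulls. The difference between the 2 kinds of null there, 68.3 and 70.9 points, is a description, since the developmental libraries chose the window. Both adult nulls lay below both controls at 11 of the 29 sites, against 28% of all sites, and above them at 3, against 10.2%. The median adult difference was -2.15 points in the window and -1.25 points over all sites.

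RRBS measured other parts of the window and did not reach the gaining pair. Of the 79 tiles, 10 had no library value, 69 had at least 1, and 35 had a value in all 27 libraries; a library measured 42 to 60 of them. The nearest tile with a value lies 1235 bases from the gaining pair, so RRBS holds no second measurement of the gain. Of the 69 tiles, 42 averaged over 80% and 16 under 15%, shares of 60.9% and 23.2%, beside 56.5% and 22.2% of the 754934 tiles with a value. Only 3 tiles lie wholly within a FoxA site, and all 3 were low. Tiles 46040001 to 46040100 and 46040101 to 46040200, both in the site 46039997 to 46040396, averaged 13.9% ± 9.99 and 7.44% ± 4.27 in age series controls and 10.3% ± 6.12 and 5.88% ± 3.61 in developmental nulls (SD, n = 4 each). Tile 46081401 to 46081500, in the site 46081316 to 46081715, averaged 1.87% ± 1.62 in controls and 2.79% ± 1.24 in developmental nulls (SD, n = 4 each). None of these 3 differences passed the threshold, with limma adjusted p = 0.916, 0.951 and 0.777.

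In the age series, 38 tiles of the window were measured in all 8 libraries and 0 passed the threshold in limma, against 0.238% of the 369462 tiles tested. At an unadjusted p under 0.05 there were 4, against 8.77% of all tiles. The difference between developmental null and control was within 5 points at 33 of the 38, with a median of 0.0527 points beside 0.28 over all tiles. The 3 tiles that were lower by more than 10 points were 46016101 to 46016200, 46049101 to 46049200 and 46049201 to 46049300. The last 2 adjoin each other and lie 1729 and 1829 bases beyond the FoxA site that lost methylation in WGBS. Both were intermediate in level, while most of the window's tiles were either high or low.

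Tile 46049201 to 46049300 stood at 82.9% in the 20-day control, 74.9% in the 8-week control, 70.8% in the 4-month control and 62.3% in the 6-month control. The developmental nulls of those ages stood at 79.3%, 40.9%, 33.3% and 29.3%. The groups thus overlapped only through the 20-day null. At the 3 older ages, a set picked after the values were seen, every null lay below every control. The share of all tiles with such a separation was not counted, so this is a description only. The mean was 72.7% ± 8.6 in controls and 45.7% ± 22.9 in developmental nulls (SD, n = 4 each), a limma difference of -27.0 points with SE 7.84 and adjusted p = 0.197. The null lay below the control of the same age at all 4 ages, with differences of -3.66 points at 20 days and -34.0, -37.5 and -33.0 points at 8 weeks and the later ages. Without the 20-day null the limma difference was -38.2 points with adjusted p = 0.00269, in a fit where 0.0992% of all tiles passed as lower. Without both 20-day libraries, an alternative chosen after seeing the data, it was -34.8 points with limma adjusted p = 0.00477, where 0.2% of all tiles passed as lower. Over 15 alternatives to the main fit the limma adjusted p of this tile ran from 0.00269 to 0.915, the latter with the spread of the 2 groups only. Besides the fits without the 20-day null or both 20-day libraries, the tile passed only with a replicate block by age (limma adjusted p = 0.025, 0.276% of all tiles lower).

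The adjoining tile 46049101 to 46049200 had the same order of levels. In the same order of age its controls stood at 93.5%, 75%, 62.5% and 61.1%, and its developmental nulls at 80.6%, 48.6%, 27.3% and 27.5%. Here too only the 20-day null overlapped the controls, again without a count over all tiles. The limma difference was -27.0 points (SE 10.0, adjusted p = 0.379), and it did not pass the threshold in any alternative, with adjusted p from 0.0627 to 0.931. Tile 46016101 to 46016200 stood at 72% to 100% in controls and 66.7% to 76.5% in developmental nulls, a limma difference of -14.2 points with SE 6.22 and adjusted p = 0.502. Tiles 46051801 to 46051900 and 46086701 to 46086800, the others of the 5 largest differences, were lower by 5.43 and 5.6 points, with limma adjusted p = 0.931 and 0.66.

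**Figure D3:**
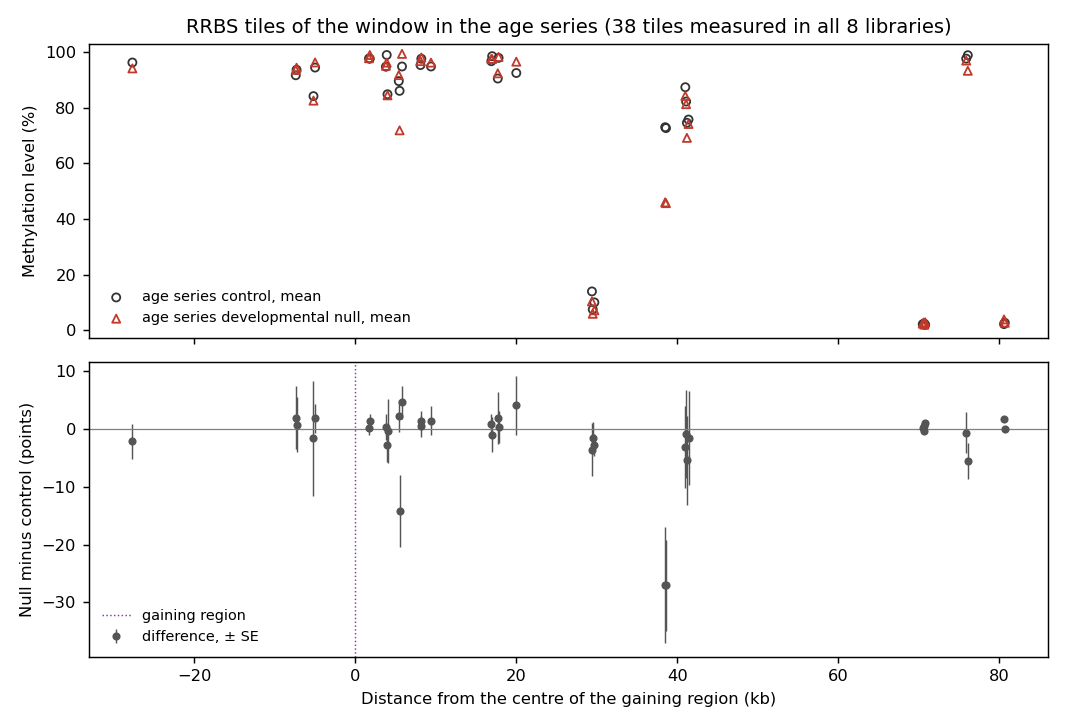
Upper panel, mean RRBS level (%) of the 38 tiles measured in all 8 age series libraries, for controls (circles, n = 4) and developmental nulls (triangles, n = 4); lower panel, the limma difference in points with its SE. Both panels run along distance from the centre of the gaining region in kb, and the 2 tiles near 38 kb stand lowest at -27.0 points each.

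The same 2 adjoining tiles were also called by age, with the spread of all RRBS groups. A fit of the 20-day livers against the 6 older ones, with genotype in the model, was added after seeing the data. It called 2 of the 38 tiles as higher at 20 days, against 1.5% of all tiles. Tile 46049201 to 46049300 was higher by 29.2 points (SE 6.41, limma adjusted p = 0.0163) and tile 46049101 to 46049200 by 36.7 points (SE 8.37, limma adjusted p = 0.0217). With the spread of the age series only neither tile passed, at limma adjusted p = 0.321 and 0.197. There is 1 control and 1 null at 20 days, and the calls rest on them. Without the 20-day null neither tile passed, at 13.6 and 27.3 points with limma adjusted p = 0.528 and 0.326. Without the 20-day control the first passed at 44.8 points (limma adjusted p = 0.00318) and the other did not, at 46.1 points (limma adjusted p = 0.0595). In the control the fall from 20 days to the mean of the older ages was 13.6 points at the first tile, and in the developmental null it was 44.8 points; whether these falls differ was not tested, as each rests on 1 young library.

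**Figure D4:**
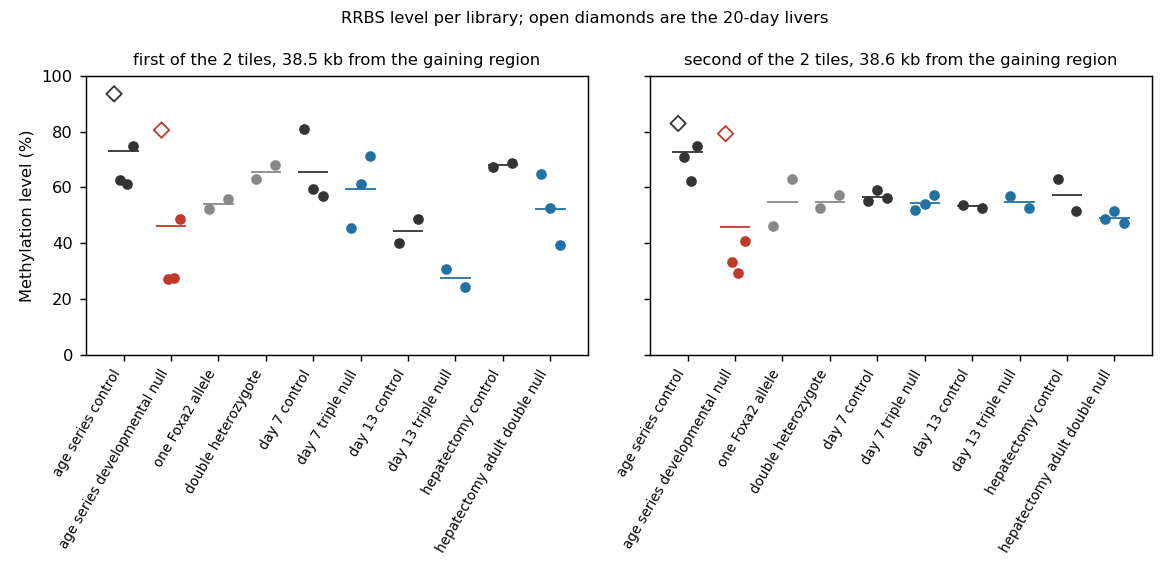
RRBS level (%) of tiles 46049101 to 46049200 (left) and 46049201 to 46049300 (right) in each of the 27 libraries by group; points are libraries, horizontal lines group means, and open diamonds the 20-day livers. In the right panel the 3 older developmental nulls, at 29.3% to 40.9%, stand under all other libraries.

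Another adjoining tile and a tile nearer the gain, both outside the rule for named tiles and picked after their values were seen, also had high 20-day levels. Tile 46049301 to 46049400 stood at 70% in the 20-day control and 0% in the 4-month control, and in the developmental nulls at 62.5%, 8.33%, 5.56% and 0% from the youngest to the oldest. Tile 46030801 to 46030900, 177 bases from a FoxA site, stood at 81.8%, 53.8%, 10% and 27.3% in controls of the same ages, and at 91.7% and 81.8% in developmental nulls of 20 days and 4 months. Neither tile was measured in all 8 libraries and neither was tested. At 46030801 the 4-month null minus control was 71.8 points, opposite in direction to tile 46049201 to 46049300 (-37.5 points). Other tiles had lower 20-day levels in controls. At tiles 46016101, 46014601 and 46051701 the 20-day control minus the mean of the older controls was -18.8, -14.4 and -18.0 points. In the developmental nulls it was -0.643, -2.88 and 19.1 points there.

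Loss of FoxA in the adult gave no call in the window by RRBS. The limma fits called 0 of 45 tiles in the day 7 triple null, against 0.00416% of all tiles, 0 of 42 in the day 13 triple null, against 0.00747%, and 0 of 45 in the adult double null after hepatectomy, against 0.00186%. At an unadjusted p under 0.05 there were 1, 3 and 2 tiles, against 4.1%, 4.68% and 4.67% of all tiles. Without day 13 triple null 1, tile 46005601 to 46005700 passed as lower at -19.4 points (limma adjusted p = 0.0471), in a fit where 0.0634% of all tiles did. Tile 46049201 to 46049300 stood at 54.3% ± 2.65 in the day 7 triple null against 56.7% ± 2.09 (SD, n = 3 each), and at 54.8% ± 3.07 in the day 13 triple null against 53.2% ± 0.744 (SD, n = 2 each). After hepatectomy it stood at 49.1% ± 2.18 in the double null (SD, n = 3) against 57.3% ± 8.29 in controls (SD, n = 2). Over the 19 libraries outside the age series this tile ranged from 46.2% to 63.2% with a median of 53.7%, and only the 6-month control of the age series fell within that range. Tile 46049101 to 46049200 was more scattered, from 24.2% to 80.8% over those 19 libraries. The effect of developmental loss minus each adult effect was fitted in limma for the tiles measured in both, and 0 of 38, 0 of 36 and 0 of 38 tiles passed, against 0.0125%, 0.0068% and 0.00303% of all tiles. At an unadjusted p under 0.05 there were 0, 4 and 2, against 5.31%, 5.56% and 5.34%. At tile 46049201 to 46049300 these differences of effects were -24.7 points (SE 12.0, adjusted p = 0.944) for day 7, -28.7 points (SE 13.5, adjusted p = 0.895) for day 13 and -18.8 points (SE 12.8, adjusted p = 0.977) for hepatectomy, so the developmental and adult effects were not shown to differ.

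Livers that kept 1 Foxa2 allele or 1 allele of each gene were compared with the age series controls, the only controls of developmental deletion. With 1 Foxa2 allele left, 1 of 37 tiles passed as lower in limma, against 5.9% of all tiles, and with 1 allele of each gene 0 of 41 passed, against 6.09%, with 4 at an unadjusted p under 0.05, against 19.3%. On the logit scale 4 of 37 and 4 of 41 tiles passed as lower, against 7.74% and 8.2% of all tiles. The tile called with 1 Foxa2 allele, 46091301 to 46091400, stood at 1.1% to 3.7% in the controls and near 0.533% ± 0.0147 (SD, n = 2) with 1 Foxa2 allele, a limma difference of -2.09 points with SE 0.586 and adjusted p = 0.0384; it did not pass without either of the 2 libraries with 1 Foxa2 allele, without the 6-month control or without the 8-week control. In all 19 libraries outside the age series it stood between 0% and 0.763%, and the 4 developmental nulls of the age series, at 2.65% ± 0.738 (SD, n = 4), were as high as the controls, so experiment and genotype cannot be told apart in this comparison. At tile 46049201 to 46049300 the 2 libraries with 1 Foxa2 allele stood at 46.2% and 63.2% and those with 1 allele of each gene at 52.7% and 57.1%; the limma differences from the controls were -18.1 points (SE 9.62, adjusted p = 0.321) and -17.8 points (SE 9.63, adjusted p = 0.337).

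HNF6 bound 5 regions of the window when peaks of the 7 lists that share at least 1 base are joined. The strongest, 46067145 to 46067631, had a peak in all 7 lists, as did 3.5% of the 10049 joined regions of the series, and it covers parts of the FoxA sites 46067178 to 46067577 and 46067246 to 46067645. Its fold enrichment over input, as the authors' lists give it, was 29.2, 17.5 and 7.5 in the 3 controls, 8.7 and 8.87 in the developmental nulls, and 45.6 and 36.5 in the adult nulls. The developmental nulls lay within the range of the controls and the adult nulls above it, but the adult lists were called with another version of the peak caller and have wider peaks, so those values are given side by side only. The 2 FoxA sites under this peak were low in WGBS in all libraries, at 4.88% to 9.36% in controls, 4% to 9.78% in developmental nulls and 3.41% to 5.95% in adult nulls.

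The other 4 regions had no peak in either developmental null list. Regions 46007260 to 46007620 and 46036751 to 46037061 were found in control 1 and both adult nulls, with deposited folds of 6.26 and 6.27 in control 1, 12.6 and 11.9 in adult null 1, and 10.0 and 8.11 in adult null 2. The adult null 1 list gives these 2 peaks false discovery rates of 39% and 100%, and gives 62.9% to its peak of fold 45.6 in the region shared by all lists. Region 46069600 to 46069910 was found in controls 1 and 2, at folds of 11.3 and 14.4, and in adult null 2, at 13.4. Region 46067942 to 46068082, within the FoxA site 46067743 to 46068142, was found in control 1 only, at a fold of 5.79. Absence from the developmental null lists was common. Of the 3 regions with peaks in control 1 and both adult nulls, 2 had none there, beside 62.2% of the 2788 such regions of the series. Likewise 74.3% of the 7025 regions with a control peak lacked one there, beside 4 of 5 here, and the lists hold 3122 and 1188 peaks against 1770 to 5767 in controls. The HNF6 region nearest to the gaining pair, 46007260 to 46007620, lies 2790 bases from it and 69 bases from the low FoxA site 46007689 to 46008088, and no list has a peak at the gaining pair.

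**Figure D5:**
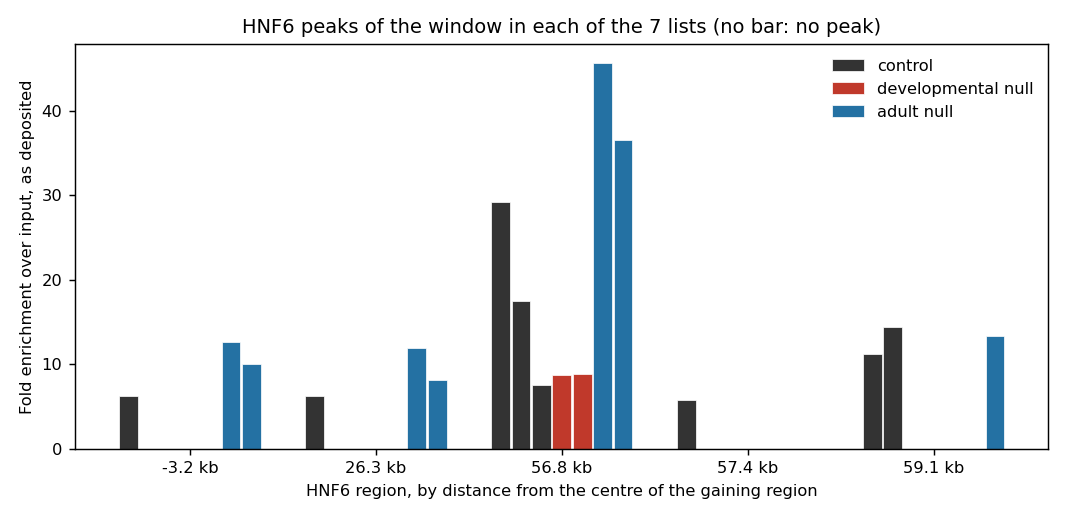
Deposited fold enrichment over input (vertical axis, from 0) of HNF6 peaks in the 5 joined regions of the window, 1 bar per list: 3 controls, 2 developmental nulls and 2 adult nulls; no bar means no peak in that list. All 7 lists have a peak at 46067145 to 46067631, and the developmental null lists have none elsewhere.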

How the data were processed

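The deposited WGBS and RRBS tables give each level as a fraction, which was multiplied by 100. The submitters' processing notes name Trim Galore 0.3.3, BSMAP 2.74 and the mm9 build; the summing of reads into sites and tiles is not stated in these sources. Per the file headers, each HNF6 library had its own peak list, called over its input with MACS 2.1.1.20160309 for controls and developmental nulls (−log10 q-value) and MACS 1.4.3 for adult nulls (a score of -10 log10 p and a percent false discovery rate); the fold enrichment is the authors'. ChIP libraries held 16760874 to 30469386 tags. The authors' 8 averaged RRBS columns were not used. In the adult WGBS table, the column headed as developmental null 1 equals control 2 at 100% of shared sites and was used for that check only.

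Differences were tested with limma 3.58.1 in R 4.3.3 on percent levels, over all sites or all tiles measured in every compared library (445198 to 622668 per library), with a spread trended on level and shared by all groups of the assay. P-values were adjusted by Benjamini-Hochberg over all features, at a threshold of 0.05. Tables were joined with Python 3.11.15 and pandas 2.3.3. Named were the listed sites, the 5 highest and 5 lowest developmental differences, tiles within a FoxA site or past a threshold, and the 5 largest age series differences. The window, the members and these rules were chosen with earlier results of these data known. HNF4A and H3K27ac ChIP were not analysed here.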

Additional observations from a re-analysis of the deposited data

Results flagged for a closer look

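At tile 46086701 to 46086800 the 8-week age series control stood at 95.8%, while the controls of 20 days, 4 months and 6 months all stood at 100%, so that this library alone makes up the whole range of its group. Since 100% is the highest level possible and the other 3 controls are tied there, any lower value would stand out in this way.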

How the results depend on the processing

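In the age series 0 tiles passed, and 1, tile 46049201 to 46049300, passed with a replicate block by age and without both 20-day libraries; leaving out 1 library gave 0 to 1. Under the replicate block its difference was -27.0 points with limma adjusted p = 0.025, in a fit where 0.276% of all tiles passed as lower. Same-aged libraries deviated together with correlations of 0.366, 0.149, 0.109 and 0.06, and 3 of 4 nulls correlated best with the control of their age. The blocks of the other experiments and of WGBS changed no call. No block could be fitted for the 2 partial deletions, whose numbers do not match those of the controls. With 1 Foxa2 allele the count of 1 became 4 on the logit scale and 0 between mean levels of 5% and 95%, with at least 20 points, or with the spread of the 2 groups only, and 0 to 3 without 1 library; with 1 allele of each gene 0 became 4 on the logit scale and 0 to 1 without 1 library. On the logit scale 7.74% and 8.2% of all tiles passed as lower in these 2 comparisons. At day 13 leaving out 1 library gave 0 to 1, tile 46005601 to 46005700 without triple null 1, at -19.4 points, where 0.0634% of all tiles passed as lower. For 20 days against older ages the 2 calls became 0 with the spread of the age series only, and 0 to 2 without 1 library. The more significant 50% of each HNF6 list left 3 of 5 regions. Directions turned at differences near 0, except at site 46032088, which stood at -4.01 points in the main fit of adult nulls. The controls of that site stood at 4.59% and 14.9%. Tile 46040101 to 46040200 in the age series ranged from -3.39 to 0.0634 points without 1 library, turning without the 20-day control, and stood at 0.313 without both 20-day libraries. Tile 46091301 to 46091400 ranged from -0.484 to 0.384 points, turning without the 8-week null, the 20-day control or the 4-month control, and stood at -0.409 without both 20-day libraries. In adult nulls sites 46007755, 46007820 and 46032088 stood at 1.16, 1.09 and 1.12 points in the adult table alone, and without 1 library ranged from -2.9 to 1.16, -2.2 to 1.09 and -9.14 to 1.12, turning without control 2 and, for 46007820, also without adult null 1. The cause was not tested. Of the other values of named sites and tiles, 220 kept their direction and side of the threshold.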
